A study of Mus musculus with 8 samples.

Results

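B16 mouse melanoma cells treated for 8 h with SEMA3E were compared with untreated cells of the same line, using the 2 arrays labelled with that treatment and the 2 control arrays out of 8 arrays in all. The comparison ran over 18073 genes or transcripts, of which 15986 had a signal well above background, as the scanner files mark it, on all 4 arrays, and those 15986 carry most of what follows. The controls were labelled as a non targeted control at 0 h, so the groups differ in time in culture as well as in SEMA3E. The other arrays held SEMA3E at 2 h and cytochalasin D, which blocks the growth of actin filaments, at 8 h, each in 2 biological replicates per the labels. All cells, the controls included, grew in high glucose medium with 5% fetal bovine serum. B16 is a single tumour line, and the labels give neither the dose nor the source of the SEMA3E.

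SEMA3E is a secreted guidance protein of the class 3 semaphorins, known for turning growing axons and blood vessels away from where it is made. Its receptor is plexin D1, on which neuropilins and the VEGF receptor Kdr can act as partners. Inside the cell, plexins act as switches on small GTPases of the Ras and Rap families, which in turn set integrin adhesion and the actin skeleton. Changes in transcripts lie further along this path.

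The levels are log2 of the processed signal relative to the 75th percentile of the reliably detected probes of the same array, so 0 is a bright transcript, -6 is close to background, and a difference of 1 is a 2-fold difference. Each difference is SEMA3E 8 h minus control, with limma's standard error (SE). A gene was called changed at an adjusted p under 0.05 in limma with Benjamini-Hochberg adjustment over all 18073 genes. With 2 arrays in each group, an exact permutation test of a single value cannot go below a two-sided p of 0.333. Transcripts are compared between arrays here, never one gene's level with another's.

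The tumour line was recognisable on every array. All 8 melanocyte markers were above background, with a median control level of 3.59 and differences between -0.25 and 0.18 by the brightest probe of each. Markers of other cells were dim or not detected: 2 of 7 fibroblast, 2 of 6 keratinocyte, 4 of 7 immune cell and 3 of 6 endothelial markers were above background on the 4 arrays, with median control levels between -5.01 and -3.92, and 0 of the 3 red cell markers on the array passed the filter. Among the dim ones, the T cell gene Cd3e read 0.81 ± 0.28 higher and the myeloid integrin Itgam 0.76 ± 0.28 higher, and with another background correction, normexp, they stood at 0.31 and 0.68. The median over the 4 immune cell markers was 0.69, and 0.37 with normexp. In RNA from a whole culture, more cells of a type and more RNA per cell cannot be told apart.

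The control arrays differed from each other more than the SEMA3E 8 h arrays did. Of the 15986 genes, 13.2% differed by more than 2-fold between the control arrays, against 5.5% between the SEMA3E 8 h arrays. Pearson's r over these genes was 0.973 for the controls and 0.988 for the SEMA3E 8 h arrays. Each control was closer to both SEMA3E 8 h arrays, at 0.975 to 0.986, than to the other control. Control replicate 1 was closest to SEMA3E 2 h replicate 1 (0.987), and control replicate 2 to cytochalasin D replicate 1 (0.995). SEMA3E 8 h replicate 2 had a median processed signal of 20.7, against 3.65 to 7.99 on the other 7 arrays, and its negative control spots read 41.6 against 17.9 to 22.2. The normexp value is given beside most results on dim probes. SEMA3E 2 h replicate 2 also stood apart, with 214 outlier spots against 6 to 24 on the other arrays and a median variation between spike-in spots of 30.3% against 10.1 to 16.7%.

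One gene passed the test, which is 0.00553% of the genes tested. Catsperg2, an auxiliary subunit of the CatSper calcium channel of sperm, read higher with SEMA3E. Its levels were -10.47 and -10.29 on the control arrays and -6.76 and -6.61 on the SEMA3E 8 h arrays. It was well above background on the 2 SEMA3E 8 h arrays and on none of the other 6, so it entered the test only through the group in which it was high, and with no filter on dim probes it was not called (limma adjusted p = 0.386). On the processed signal the fold is a bound, at least 3.09-fold higher with SEMA3E (limma adjusted p = 0.0157), which does not hold with normexp. Against cytochalasin D at 8 h, where its levels were -9.92 and -9.79, it was again the only gene called (limma adjusted p = 0.0466). That test shares the SEMA3E 8 h arrays with the first. All of this lies at the lower end of the scale, and with normexp the difference was 0.62 with a limma adjusted p of 0.953. Leaving out any of the 4 arrays also ended the call, with limma adjusted p between 0.0598 and 0.388, and so did leaving out either cytochalasin D array (0.119).

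At an unadjusted p under 0.05, 973 genes read higher (5.38%) and 136 lower (0.753%), which is 1109 genes where 904 would be counted with no difference anywhere. Among the 15986 genes above background on the 4 arrays, 595 read higher (3.72%) and 88 lower (0.55%), together 683 where 799 would be counted. The excess over 904 thus lay among the other genes tested. Those could enter through a single group in which they were high, so 904 is no fair count for them. A difference above 0 was seen for 62.8% of the 15986. No gene of this set was called, and the smallest limma adjusted p was 0.138. The share of higher readings among the 1109, 87.7%, depends on the scaling: it was 76.6% with normexp, 68.4% with the authors' deposited table, 61.4% with the 75th percentile of all probes, 35.8% with quantile normalization and 3.51% with the median of all probes. That last scaling also moved the median difference of all genes from 0.12 to -1.04, so every direction given here is relative to the detected probes. Differences of more than 2-fold were seen for 641 genes upward and 37 downward. The named genes below are therefore the foremost differences of a comparison in which only Catsperg2 passed, and their values describe these 4 arrays.

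The excess of higher readings lay in dim genes. In the 1975 genes with a mean level under -6, the median difference was 0.52, and SEMA3E 8 h replicate 1 stood 0.24 above the control mean while replicate 2 stood 0.80 above it. Of those genes, 266 with an unadjusted p under 0.05 read higher and 8 lower. With normexp the median became 0.23 and the counts 32 and 0. The median difference was smaller at higher levels, at 0.27 and 0.14 in the next ranges and 0.02, -0.01 and 0.03 in the brightest 3. The background of SEMA3E 8 h replicate 2 moved with this pattern, and its part in it was not tested.

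**Figure D1:**
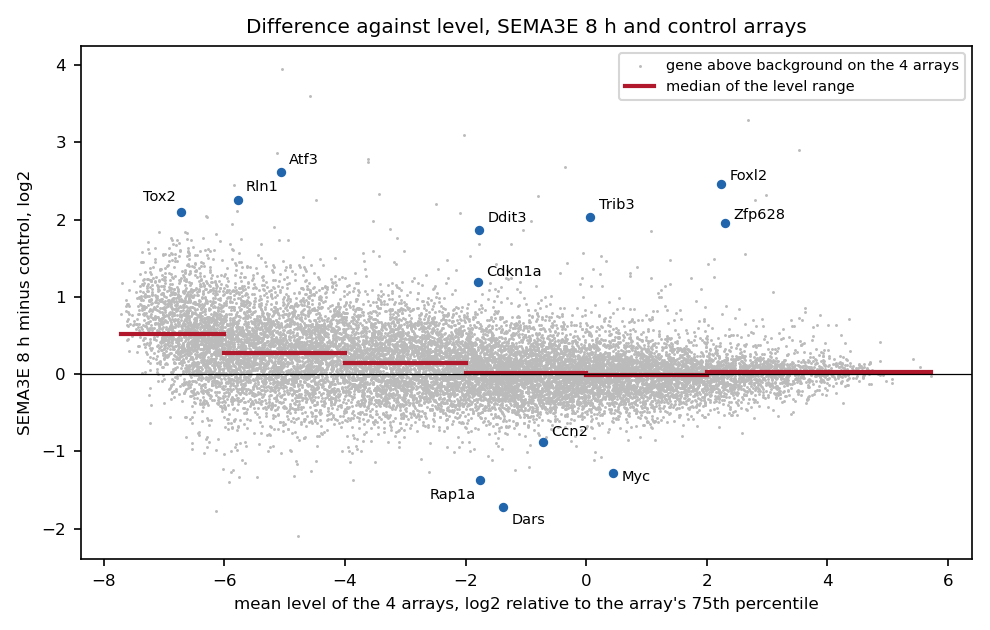
Difference between SEMA3E 8 h and control (log2) against the mean level of the 4 arrays (log2 relative to the array's 75th percentile) for the 15986 genes above background on all 4 arrays. Red bars are medians of 6 level ranges, 0.52 at the left and 0.03 at the right, and blue points are genes named in the text.

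The foremost lower genes were not confined to the dimmest levels and were less touched by the background. The 15 with the smallest p among those with a gene symbol and groups that did not overlap ran from -1.73 to -0.76. Their control means lay between -5.41 and 1.09, and normexp left their differences between -1.49 and -0.46. Their limma adjusted p lay between 0.357 and 0.71. Of all 15986 genes, 12.8% had both SEMA3E 8 h arrays below both controls, so the lack of overlap is common.

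Dars, which charges the tRNA for aspartate, had the smallest p of the lower genes. Its levels were -0.56 and -0.48 in the controls and -2.41 and -2.08 at 8 h of SEMA3E, a difference of -1.73 ± 0.32 (limma adjusted p = 0.357). Both treated arrays lay more than 2-fold below both controls, and the cytochalasin D arrays, at -0.99 and -0.84, lay between the groups. It stood nearly alone in its family: of 39 tRNA synthetase genes and partners above background, 26 were above 0 and 13 below, with a median difference of 0.06, and 2 of them were lower at an unadjusted p under 0.05. The other was Eef1e1, a scaffold of the synthetase complex, at -0.66.

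The probe named for Rap1a came next. Rap1a is a small GTPase that switches integrins on, and the Rap family is the substrate of the plexin GTPase-activating domain. Its levels were -1.06 and -1.10 in the controls and -2.53 and -2.37 with SEMA3E, a difference of -1.37 ± 0.27 (limma adjusted p = 0.382), and cytochalasin D gave -1.37 and -0.89. The files describe this probe as a Rap1A retrocopy. The other probe, labelled below as on the parent transcript, was well above background on 1 of 8 arrays. Neither was aligned with the parent transcript, so its low signal does not show that the parent is absent. Parent and retrocopy are close in sequence and their signals cannot be told apart here. The sequences of both probes are shown because which transcript each of them measures was not tested. Both have 60 bases and 36.7% G and C.
Rap1a, probe described as the retrocopy and used here: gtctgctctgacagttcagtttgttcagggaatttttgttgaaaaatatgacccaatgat
Rap1a, probe on the parent transcript: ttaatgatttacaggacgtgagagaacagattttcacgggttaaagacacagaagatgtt

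Myc, the growth-promoting transcription factor, read 0.79 and 1.39 in the controls and -0.11 and -0.27 at 8 h of SEMA3E. The difference was -1.28 ± 0.34 (limma adjusted p = 0.665), and the control arrays differed from each other by more than the treated ones did. At 2 h of SEMA3E the levels were lower still, -0.57 and -1.29, while cytochalasin D gave 1.32 and 1.14. All 4 SEMA3E arrays thus lay below the other 4. The 2 h and 8 h values were read against the same controls.

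Ccn2, a secreted matricellular protein and a standard target of the YAP and TAZ coactivators, read -0.21 and -0.35 in the controls and -1.32 and -1.01 with SEMA3E at 8 h, a difference of -0.88 ± 0.26 (limma adjusted p = 0.682). Cytochalasin D gave -0.61 and -0.35. Its relative Ccn1 read -1.26 and -0.40 in the controls and -1.51 and -1.45 with SEMA3E, a difference of -0.65 ± 0.50 that the gap between the controls exceeds. Id1, an inhibitor of helix-loop-helix factors and a target of BMP signals, read -0.32 and -0.80 in the controls against -2.16 and -1.45. Pfkfb3, which makes the activator of the glycolytic enzyme phosphofructokinase, read -1.14 and -1.11 against -1.98 and -1.78. For Pfkfb3 the groups were apart by more than the spread within either, which was not so for Id1. A second Pfkfb3 probe, close to background, gave 0.83.

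The rest of the 15 were N4bp2l2, Rbm48, Mthfd2l, Tmed7, Caap1, Chsy3, Slc20a2, Pbrm1 and Rasef. Mthfd2l is a mitochondrial enzyme of folate metabolism, Chsy3 builds chondroitin sulfate, Slc20a2 imports phosphate and Pbrm1 is a subunit of a chromatin remodelling complex. N4bp2l2 read -5.47 and -5.35 in the controls, -5.41 and -5.37 at 2 h and -6.93 and -6.35 at 8 h of SEMA3E. It was close to the controls at 2 h. Chsy3 read -1.20 and -0.89 in the controls, -1.89 and -1.94 at 2 h and -2.11 and -1.77 at 8 h. The 2 h and 8 h differences share the control arrays. Against cytochalasin D, with the same SEMA3E 8 h arrays, the limma adjusted p of the 15 genes lay between 0.413 and 0.865. Other probes of these genes did not all show the difference. A second Rbm48 probe gave -1.13, as the first did. For Pbrm1, at -1.37, another probe above background gave -0.16 and a dimmer one -0.25. For Slc20a2, at -1.01, another probe above background gave -0.12, and for N4bp2l2, at -1.23, a probe close to background gave 0.30.

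**Figure D2:**
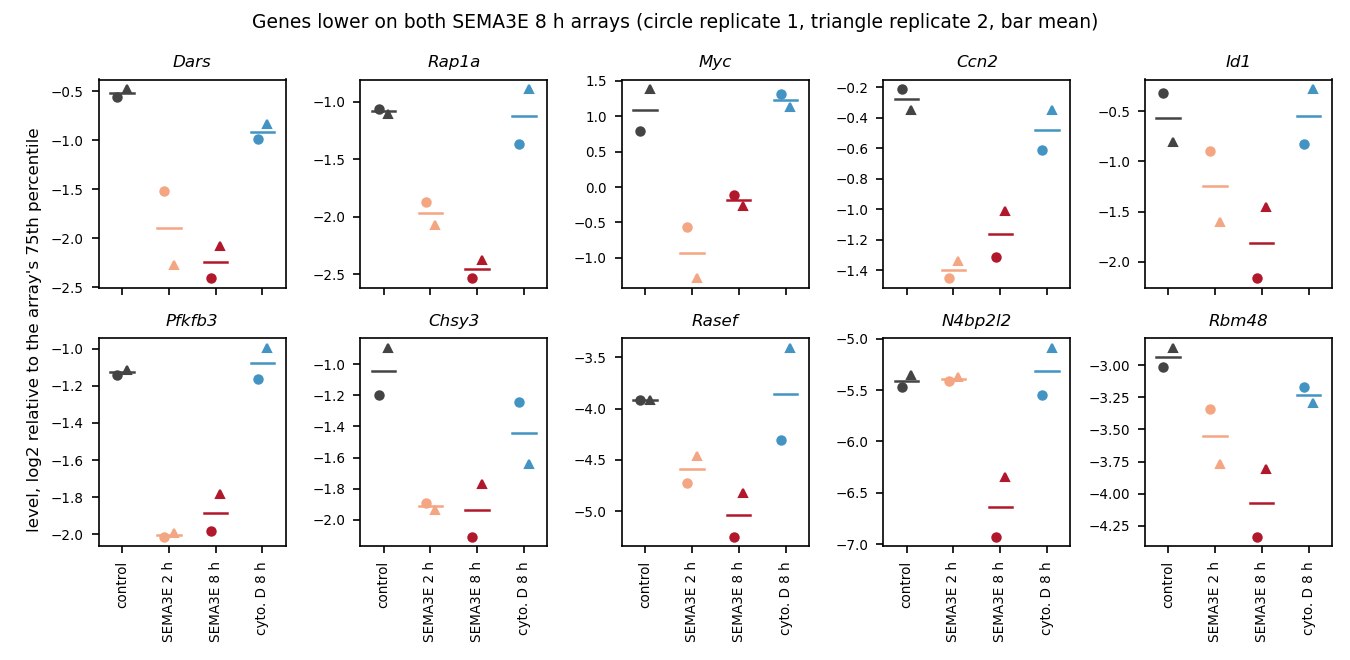
Level (log2 relative to the array's 75th percentile) of 10 genes that read lower at 8 h of SEMA3E, on each of the 8 arrays by group, with bars at the group means of 2 arrays. Dars goes from -0.56 and -0.48 in the controls to -2.41 and -2.08 with SEMA3E, and N4bp2l2 at 2 h of SEMA3E sits with the controls.

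The 15 higher genes with the smallest p, by the same rule, had differences between 1.25 and 2.46 and limma adjusted p between 0.324 and 0.584. Of all 15986 genes, 23.9% had both SEMA3E 8 h arrays above both controls. With the exception of Foxl2, these genes were dim, with control means between -8.15 and -6.85, and normexp brought their differences down to between 0.43 and 1.02. Tox2, an HMG-box factor of lymphoid cells, read -7.54 and -8.01 in the controls and -5.99 and -5.37 with SEMA3E, a difference of 2.10 ± 0.35 and of 0.63 with normexp. Rln1, the hormone relaxin, read -6.96 and -6.86 against -4.58 and -4.73, a difference of 2.26 ± 0.38 and of 1.02 with normexp. Sema4g, a transmembrane semaphorin, read -7.25 and -6.85 against -5.31 and -5.15, with a difference of 1.82 ± 0.42 and of 0.75 with normexp. The groups did not overlap for any of them, but the size of the difference depended on the background. The others were Clec1b, Lrguk, Cep295nl, Krtap19-5, Tmem82, Ndrg2, Hsd17b1, Matk, Oasl1, Shd and Scx.

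Foxl2, a forkhead factor of the ovary and pituitary, was the bright exception. It read 0.98 and 1.04 in the controls and 4.09 and 2.85 with SEMA3E, a difference of 2.46 ± 0.50 (limma adjusted p = 0.412), and both treated arrays were far above the controls. Zfp628, a zinc finger protein, had a like pattern at 1.002 and 1.66 against 3.90 and 2.67, a difference of 1.95 ± 0.49. The authors' deposited table, in which the step that combines the spots of a gene is not stated, gives Foxl2 the opposite sign (-2.86). The probes used are made mostly of G and C, at 81.7% for Foxl2 and 86.7% for Zfp628. Over the genes above background, the deviation of an array from the mean of all 8 correlated with the probe's share of G and C at r = 0.175 (replicate 1) and 0.312 (replicate 2) for SEMA3E 8 h, while the controls had -0.292 and -0.0352, a description over genes of the same arrays. With a trend on that share removed, Foxl2 stood at 1.54 and Zfp628 at 0.92. The second Zfp628 probe, at 53.3% G and C and above background on all 4 arrays, gave 0.13. The second Foxl2 probe gave 2.25 but was above background on 2 of the 4 arrays. The paired probes differ in target, in level and in G and C, and they are shown with G and C in capitals.
Foxl2, probe used here: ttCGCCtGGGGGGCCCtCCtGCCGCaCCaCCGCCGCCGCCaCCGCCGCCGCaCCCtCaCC
Foxl2, second probe: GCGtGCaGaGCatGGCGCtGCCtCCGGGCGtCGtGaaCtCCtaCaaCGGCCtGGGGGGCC
Zfp628, probe used here: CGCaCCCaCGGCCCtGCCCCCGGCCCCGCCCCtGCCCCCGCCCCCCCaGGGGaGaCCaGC
Zfp628, second probe: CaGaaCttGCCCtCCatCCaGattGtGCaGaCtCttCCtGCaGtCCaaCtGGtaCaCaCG

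Among genes at the edge of detection, 241 passed that mark in both treated samples but in no control, and 128 did the reverse. The totals over the tested genes ran the other way: 17303 passed it on both control arrays and 16608 on both treated arrays. Over all gene spots the treated arrays passed it more often, at 46.5% and 48.2% against 45.1% and 44.7% in the controls. The bounds were largest upward for Apobr, a lipoprotein receptor of macrophages (at least 6.93-fold higher), Palld, an actin-bundling protein (at least 4.98-fold higher), Gbx1 (at least 4.28-fold higher), Sgtb (at least 3.81-fold higher), Adad1 (at least 3.64-fold higher) and Cldn15 (at least 3.52-fold higher). These 6 entered the comparison only through the SEMA3E 8 h arrays, so their p-values are not given, and none was called. The bounds hold for the processed signal only. With normexp the log2 differences of the 6 lay between 0.54 for Cldn15 and Adad1 and 0.96 for Apobr. All of these are under 2-fold and below the bounds. Downward the largest bounds were those of Zfp560 (at least 1.61-fold lower) and Atp10b (at least 1.58-fold lower).

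Because the foremost higher genes were dim, the 12 higher genes with the smallest p and a control mean above -3 were also listed, a choice made after the values were seen. They include Foxl2 and Zfp628, and the other 10 had differences between 0.70 and 1.86, normexp differences between 0.60 and 1.62 and limma adjusted p between 0.732 and 0.768. Tgif1, a corepressor of TGF-beta signals, read -1.52 and -1.86 in the controls and 0.12 and -1.13 with SEMA3E. S100a11, a calcium-binding protein, read -1.23 and -1.29 against -0.52 and -0.34. Gabarap, an autophagosome protein, read 0.62 and 0.85 against 1.47 and 1.42, and Poldip2 read -1.75 and -1.46 against -0.85 and -0.87. For S100a11, Gabarap and Poldip2 the treated arrays lay close together and apart from the controls. The differences were 0.83 ± 0.29, 0.71 ± 0.26 and 0.75 ± 0.29. Kyat1, which handles kynurenine, differed by 0.72 ± 0.24.

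Ddit3 and Cdkn1a, also among these 12, are stress-induced genes that read higher on SEMA3E 8 h replicate 1 than on replicate 2. Cells under amino acid shortage or with misfolded protein in the endoplasmic reticulum slow translation and make the factor ATF4, which switches on genes such as Ddit3, Trib3, Chac1 and Ppp1r15a. Ddit3, a death-promoting factor of this response, read -2.76 and -2.65 in the controls and 0.17 and -1.86 with SEMA3E, a difference of 1.86 ± 0.66 (limma adjusted p = 0.749). Both treated arrays were above the controls, but replicate 1 was 4.07-fold above replicate 2, and without replicate 1 the difference was 0.85. Sesn2, a stress-induced regulator of TORC1, read -3.96 and -3.67 against -1.48 and -2.98, and Ddit4, another brake on TORC1, read -2.07 and -4.21 against -0.43 and -1.67. Without replicate 1 Sesn2 stood at 0.83. For Ddit4 the controls were further apart than the treated arrays, and the difference was 3.16 without control replicate 1 and 1.02 without control replicate 2.

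The gap by which SEMA3E 8 h replicate 1 exceeded replicate 2 was then ranked over the 11126 genes with a symbol and above background on all 4 arrays, a view chosen after the values were seen. The top 5 were Nupr1, Gdf15, Trib3, Atf3 and Ppp1r15a, and Chac1 was the ninth, after Dusp8, Slc23a3 and Kdm5b. The top 5 and Chac1 are described because they are known as genes of the stress response just described or as stress-induced factors, a choice made with their values in view. In the opposite direction the largest gaps were those of Hand1 (7.43-fold), Slc4a7 (7.39-fold) and Id3 (4.74-fold). Nupr1, a small stress-induced chromatin protein, read -0.25 on SEMA3E 8 h replicate 1 and -4.28 on replicate 2, a 16.4-fold gap, with controls at -4.36 and -4.84. Gdf15, a secreted stress cytokine, read -0.24 and -4.27 with controls at -4.82 and -5.16. Trib3, a pseudokinase that restrains ATF4, read 3.08 and -0.91 with controls at -0.67 and -1.23. In each case replicate 2 lay within 2-fold of the higher control.

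Atf3, a factor of the ATF family, read -1.89 and -5.63 at 8 h of SEMA3E with controls at -6.78 and -5.97. Ppp1r15a, which restores translation after stress, read 2.52 and -0.41 with controls at -0.32 and -0.50. Chac1, which degrades glutathione, read 0.12 and -2.12 with controls at -2.10 and -2.27. Without replicate 1, the differences from control were 0.04 for Trib3, 0.07 for Chac1, 0.32 for Nupr1, 0.73 for Gdf15 and 0.75 for Atf3, and without replicate 2 they were 4.03, 2.30, 4.36, 4.75 and 4.48. The limma adjusted p over both replicates lay at 0.827 for Gdf15 and Atf3, at 0.853 for Nupr1 and at 0.877 for Trib3.

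A single array at 2 h of SEMA3E, replicate 2, also read high for some of these genes. It is the array with the most outlier spots, whose part in this was not tested. It gave -1.82 for Nupr1, -1.41 for Gdf15, 2.08 for Trib3 and -4.56 for Atf3, while its partner gave -4.31, -3.79, -0.89 and -7.28. Ppp1r15a and Chac1, at 0.14 and -2.06 on that array, were close to its partner at 0.04 and -1.96. The cytochalasin D arrays gave -0.91 and -0.36 for Trib3. In the other direction, Id3, a relative of Id1, was low on the same pair of arrays, at -4.41 on SEMA3E 8 h replicate 1 and -5.34 on SEMA3E 2 h replicate 2, against -2.17 and -3.39 on their partners and -2.51 and -1.86 in the controls. The bicarbonate transporter Slc4a7 was low on SEMA3E 8 h replicate 1 alone, at -2.996 against -0.11 on replicate 2.

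**Figure D3:**
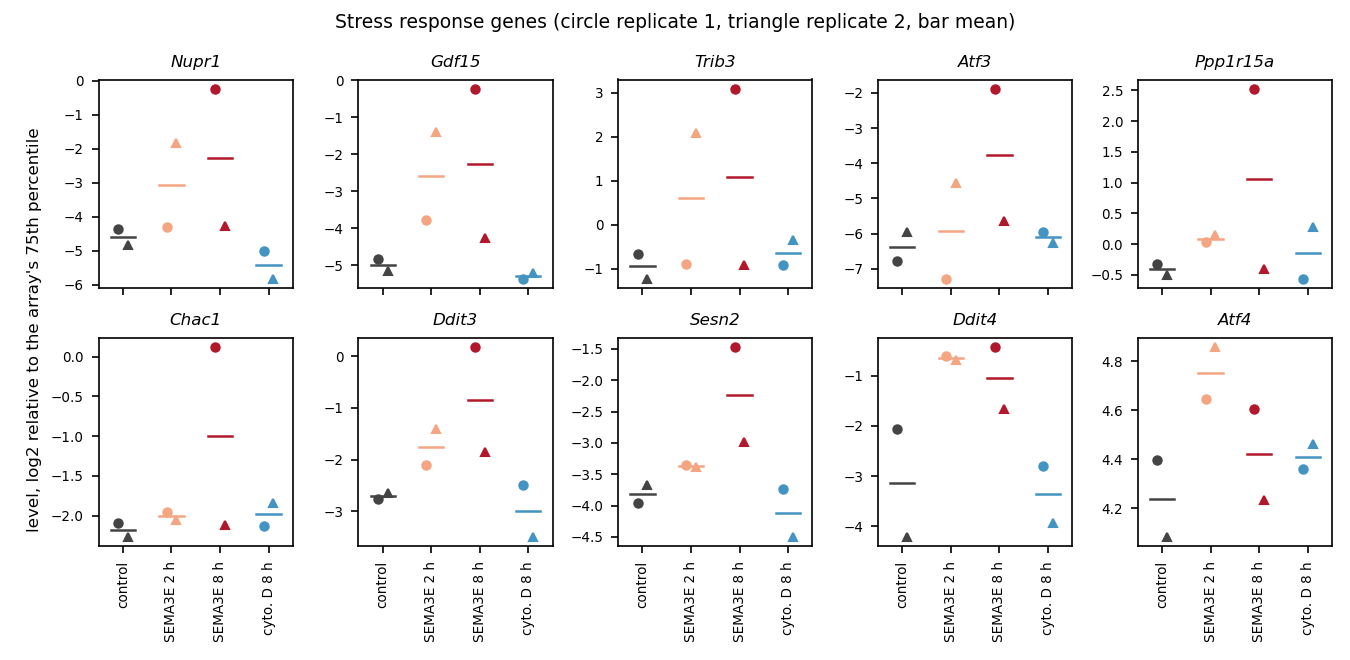
Level (log2 relative to the array's 75th percentile) of 10 stress response genes on each of the 8 arrays by group, with bars at the group means of 2 arrays. SEMA3E 8 h replicate 1 is the highest array for 9 of them, as for Trib3 at 3.08 against -0.91 on replicate 2, and Atf4 varies little.

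Atf4 and Hspa5 differed little on that array. Atf4 itself, which is known to be set mainly at translation, read 4.60 and 4.24 with SEMA3E and 4.40 and 4.08 in the controls. Hspa5, the chief chaperone of the endoplasmic reticulum, read 3.11 and 2.96 against 3.07 and 2.96, and both pairs overlapped. Of the 24 genes of the unfolded protein and ATF4 list above background, 17 were above 0 and 7 below, against 62.8% of all genes above 0. Of them 6 had both treated arrays above both controls, against 23.9% of all genes, which is close to that share, and 3 read higher at an unadjusted p under 0.05, against 3.72% of all genes. The median level of the 24 was 2.03 on SEMA3E 8 h replicate 1, while the other 7 arrays gave 0.50 to 0.80. The median difference was 0.35, against 0.11 over all genes, 0.03 without replicate 1 and 0.46 without replicate 2. None was called.

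The binding motif of ATF4 with its CEBP partners is TGATGNAA (TTNCATCA on the other strand). It was searched on both strands in promoters from RefSeq (GRCm38.p6), running from 250 bases before to 50 after the annotated start. It was found in 1304 of 32851 promoters (3.97%) and in 6 of the 25 list genes with a promoter in the table: Asns, Chac1, Herpud1, Slc7a11, Trib3 and Vldlr. A match is a description of these letters and no evidence of binding. The promoters of Chac1 and Trib3 are shown because these genes were high together on SEMA3E 8 h replicate 1, and that of Asns because it holds the motif while its levels, 1.62 and 0.73 with SEMA3E and 1.02 and 0.81 in the controls, were less apart. Ddit3, also high on that array, had no match in its window. Capitals mark the motif, which begins at -193 in Chac1, 14 in Trib3 and -23 in Asns, counted from 0 at the start of transcription. The windows are chr2:119350992-119351291 on the plus strand, chr2:152344011-152344310 on the minus strand and chr6:7693160-7693459 on the minus strand.
Chac1: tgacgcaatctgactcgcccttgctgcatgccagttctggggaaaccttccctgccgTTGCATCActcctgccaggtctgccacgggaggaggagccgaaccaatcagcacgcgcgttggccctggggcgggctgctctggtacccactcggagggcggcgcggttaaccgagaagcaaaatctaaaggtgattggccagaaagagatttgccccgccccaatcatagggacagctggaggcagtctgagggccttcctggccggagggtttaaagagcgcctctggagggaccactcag
Trib3: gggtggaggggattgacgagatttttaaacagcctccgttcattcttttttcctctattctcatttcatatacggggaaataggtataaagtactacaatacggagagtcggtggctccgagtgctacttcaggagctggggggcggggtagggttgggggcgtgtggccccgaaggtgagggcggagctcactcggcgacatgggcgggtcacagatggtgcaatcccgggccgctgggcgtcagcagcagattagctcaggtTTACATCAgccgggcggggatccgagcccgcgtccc
Asns: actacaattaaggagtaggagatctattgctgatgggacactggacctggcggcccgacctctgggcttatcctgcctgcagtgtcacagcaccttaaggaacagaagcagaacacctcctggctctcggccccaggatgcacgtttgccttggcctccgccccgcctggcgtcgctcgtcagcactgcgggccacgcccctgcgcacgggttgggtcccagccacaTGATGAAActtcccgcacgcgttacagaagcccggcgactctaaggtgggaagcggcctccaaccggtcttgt

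The p53 list held genes of the DNA damage response. Cdkn1a, the cell cycle inhibitor p21, read -2.39 and -2.38 in the controls and -0.64 and -1.75 with SEMA3E, a difference of 1.19 ± 0.46 (limma adjusted p = 0.768), which became 0.63 without SEMA3E 8 h replicate 1. From the authors' deposited table the sign was the opposite for Cdkn1a (-0.72) and for Trp53inp1 (-0.82). Perp, a desmosome protein, read -7.34 and -7.07 against -5.84 and -5.79, a difference of 1.39 ± 0.33 and of 0.53 with normexp. With Sesn2 and Trp53inp1, these were the 4 of 21 genes above background that read higher at an unadjusted p under 0.05, against 3.72% of all genes. None read lower at that threshold, 17 of the 21 were above 0, against 62.8% of all genes, and 8 had both treated arrays above both controls, against 23.9%. The median difference was 0.31, and 0.28 without replicate 1.

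The receptor was close to control. Plxnd1, the SEMA3E receptor, was bright at 3.13 and 3.24 in the controls and 2.99 and 3.28 with SEMA3E, a difference of -0.05 ± 0.26. A dimmer Plxnd1 probe, also above background, gave 0.33 ± 0.59. The coreceptor Nrp2 read 2.13 and 1.47 against 1.81 and 1.71, and the integrin chain Itgb1 -0.59 and 0.60 against -0.11 and 0.35, and both pairs of groups overlapped. Kdr, a VEGF receptor, read -5.03 and -4.57 against -4.10 and -4.24, a difference of 0.63 ± 0.48 and of 0.53 with normexp. Gipc1, an adaptor that binds the tail of plexin D1, differed by 0.58 ± 0.38, and by 0.31 with normexp. The groups did not overlap for Kdr or Gipc1. Slit2, a guidance protein of another family, read -4.38 and -4.96 against -5.29 and -5.52. Sema3e itself was near background, at -7.62 and -7.09 in the controls and -7.41 and -8.08 with SEMA3E. Of the 9 listed genes above background, 4 were above 0 and 5 below, and none passed an unadjusted p of 0.05.

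Of 29 plexin effectors and Ras-like GTPases above background, 16 were above 0 and 13 below, with a median difference of 0.04. The one lower at an unadjusted p under 0.05 was the Rap1a probe described above. The one higher was Mras, at -2.23 and -2.54 in the controls and -1.44 and -1.91 with SEMA3E (0.70 ± 0.28). Another Mras probe above background gave 0.34 ± 0.54, and one close to background gave -0.48 ± 0.53. Rras, the classical substrate of plexins, read -4.46 and -3.76 against -3.02 and -3.60, and its groups did not overlap.

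Integrins, focal adhesions and the actin skeleton lay around 0. Of 22 integrin and focal adhesion genes above background, 10 were above 0 and 12 below, with a median of -0.03. Ilk, a scaffold kinase of integrins, was the one at an unadjusted p under 0.05, with -1.69 and -0.81 in the controls and -0.29 and -0.38 with SEMA3E. Itga5, the fibronectin receptor chain, read -5.97 and -4.38 against -3.92 and -4.23, and the difference was 0.66 with normexp. The medians were 0.05 over 27 targets of SRF and MRTF, the factors that sense free actin, and 0.05 over 37 actin nucleation and turnover genes, with none past an unadjusted p of 0.05 in either.

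ERK feedback genes, which are switched on by the Ras and ERK pathway and restrain it, had the lowest median of the lists. Of 13 above background, 11 were below 0, while 62.8% of all genes were above it. In 7 of the 13 both treated arrays lay below both controls, against 12.8% of all genes. In 0 of them both lay above, against 23.9%. The median difference was -0.38, against 0.11 over all genes, with -0.27 without SEMA3E 8 h replicate 1 and -0.38 without replicate 2. It was -0.30 with normexp and -0.18 with the trend on G and C removed. No list median was taken without a control array. The median level of the list was 0.03 and -0.39 in the controls and -0.55 and -0.59 at 8 h of SEMA3E. Cytochalasin D gave -0.59 and -0.09, so 1 of its arrays was as low. Spry1, a Sprouty inhibitor of receptor signals, read -2.56 and -2.92 in the controls and -3.71 and -3.22 with SEMA3E, a difference of -0.72 ± 0.30, and was the one at an unadjusted p under 0.05. Dusp6, the ERK phosphatase, read 2.25 and 2.11 against 1.497 and 1.51, a difference of -0.68 ± 0.31, and cytochalasin D gave 2.11 and 2.66. Spred1 differed by -0.43 ± 0.27, and by 1.11 from the authors' deposited table. None of the list was called.

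YAP and TAZ targets, which respond to cell shape and tension, had a median of -0.26 over 15 genes, 10 of them below 0. The median was -0.08 with normexp and -0.13 with the trend on G and C removed. It was -0.14 without SEMA3E 8 h replicate 1 and -0.17 without replicate 2. The median level of the list was -2.04 and -1.32 in the controls. At 8 h of SEMA3E it was -1.69 and -1.60, so both treated arrays lay between the controls. At an unadjusted p under 0.05, Ccn2 read lower and Gadd45b, a stress-induced growth regulator, read higher, the latter at -3.43 and -3.05 in the controls and -2.44 and -2.31 with SEMA3E. The TGF-beta list, with a median of -0.07 over 20 genes, likewise held 1 of each, Id1 lower and Tgif1 higher.

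In sterol and fatty acid synthesis, 18 of 27 genes (66.7%) were above 0, close to the 62.8% of all genes. Both treated arrays lay above both controls for 11, against 23.9% of all genes, and below both for 3, against 12.8%. The median difference was 0.23, against 0.11 over all genes. The median level of the list was -1.24 and -1.53 in the controls and -1.54 and -1.38 with SEMA3E, so the groups overlapped. Dhcr7, the last enzyme of cholesterol synthesis, read -2.71 and -2.48 in the controls and -1.84 and -1.62 with SEMA3E (0.86 ± 0.33). Fdft1, which makes squalene, read -4.27 and -2.69 against -2.21 and -2.28 (1.24 ± 0.48), and Mvd, of the mevalonate pathway, -4.32 and -3.34 against -2.87 and -2.90 (0.94 ± 0.39). These 3 were at an unadjusted p under 0.05, against 3.72% of all genes. Without control replicate 1, whose values were the low ones for both, Fdft1 stood at 0.45 and Mvd at 0.45.

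Of 26 interferon response genes above background, 22 were above 0, against 62.8% of all genes, 12 had both treated arrays above both controls, against 23.9%, and 3 were higher at an unadjusted p under 0.05, against 3.72%. The median was 0.29, with 0.195 without SEMA3E 8 h replicate 1 and 0.49 without replicate 2. These 3 were Oasl1, Mx2 and H2-D1. Mx2, an antiviral GTPase, read -6.19 and -6.52 in the controls and -5.43 and -5.09 with SEMA3E (1.09 ± 0.28, and 0.57 with normexp). H2-D1, an MHC class I chain with close relatives in the genome, read -2.34 and -1.66 against -0.88 and -1.24. The median control level of the list was -3.42, where the median difference of all genes of like level was 0.14.

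By the brightest probe of each gene, pigment genes, the product of the line's cell type, showed little difference. The median was 0.05 over 28 genes, 18 above 0 and 10 below, and none was at an unadjusted p under 0.05. Rab32, a GTPase of melanosome traffic, stood furthest down, at 0.30 and -0.32 in the controls and -0.88 and -0.40 with SEMA3E. Among dimmer probes above background, Tyr gave -0.99 and Mitf -1.22, -1.04 and 0.20. Those of Dct and Tyrp1 lay between 0.03 and 0.09, and that of Mlana at -0.11. Sox10 gave 0.17 and 0.73, and Trpm1 0.29 and 0.74. The medians were -0.05 over 33 S phase genes, -0.01 over 28 mitosis genes, 0.05 over 33 genes of oxidative phosphorylation and 0.06 over 55 ribosomal protein genes, and none of these genes passed an unadjusted p of 0.05. In the clock list, Nr1d1, a repressor of the circadian loop, was dim and read -7.58 and -6.55 against -5.79 and -5.72, with a difference of 1.31 ± 0.50 and of 0.57 with normexp.

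**Figure D4:**
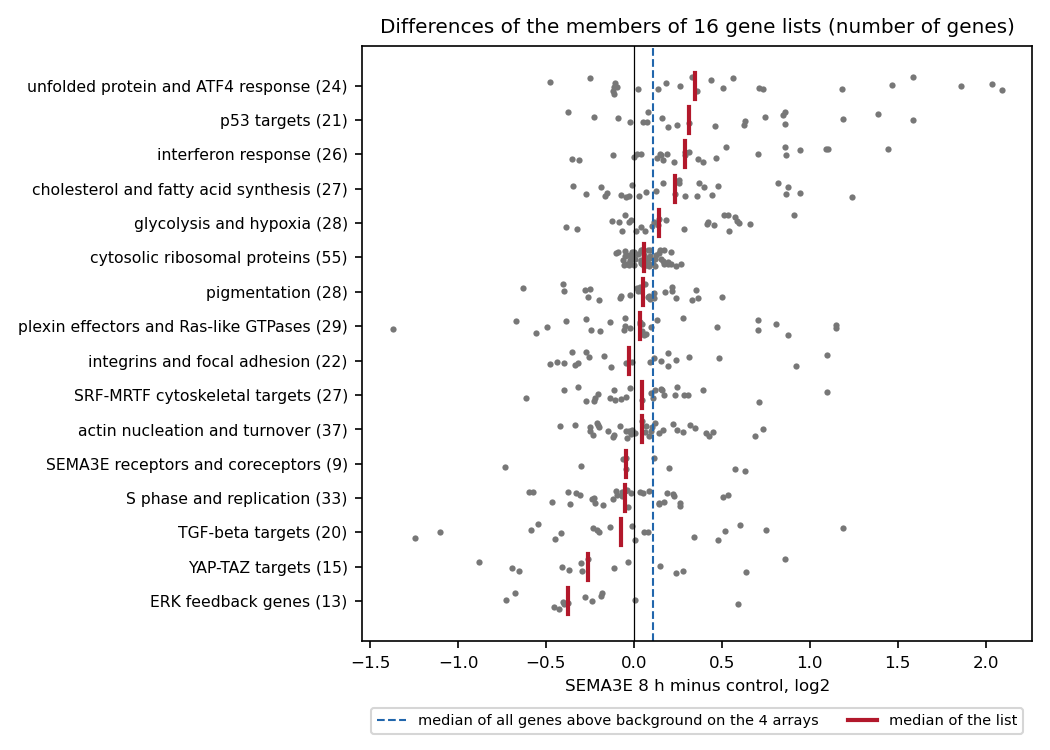
Difference between SEMA3E 8 h and control (log2) for the members above background of 16 gene lists, with the number of genes in brackets, red bars at the list medians and a dashed line at 0.11, the median of all genes above background. The medians run from -0.38 for ERK feedback genes to 0.35 for the unfolded protein and ATF4 list.

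Against cytochalasin D at the same 8 h, 1987 of the 18073 genes had an unadjusted p under 0.05, and against SEMA3E at 2 h 2099 did. The count against control was 1109. With no difference anywhere 904 would be counted, which is no fair count for genes that entered through a single group. No gene was called against 2 h, where the smallest limma adjusted p was 0.160.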

How the data were processed

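The authors deposited 1 scanner file per array and a table per gene name. Per the file headers, Agilent Feature Extraction 11.5.1.1 gave the processed signal, a linear intensity from which the program had taken background and array trends, not scaled between arrays, and the header names build mm9. The deposited table is also a linear intensity: for 20738 gene names with 1 spot, 99.99% of its values lay within 1% of the processed signal. All 8 arrays lay on 1 slide and had 1 scan day, so batch could not be tested, and group and slide position cannot be told apart.

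Control spots were left out (1439 of 62976), outlier spots were set to missing and spots of a probe were averaged. A probe entered with a value on all 8 arrays and a signal well above background on both arrays of a group: 24667 probes, and 18073 genes by the brightest probe. Symbols come from RefSeq identifiers (27673 of 55698 probes matched). Signals were taken as log2 and centred on each array's 75th percentile, taken over 18687 probes that passed that mark everywhere. Group means of all 8 arrays were fitted with limma 3.58.1 (R 4.3.3), with 4 residual and 3.40 prior degrees of freedom. It was tested on simulated data. For undetected genes the fold was taken against the lowest signal marked well above background on each array, or the probe's own where higher.

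The number of arrays limits precision: the median SE was 0.34. The labels call replicates biological, and p-values measure the spread between them. Same-numbered arrays deviated together at r = 0.122 over all genes, and at 0.212 over genes above background on the 4 arrays. The 2 pairs are too few to pair the arrays. The named genes were those called, the 15 of smallest p in each direction, the 6 largest bounds in each direction, and of each list the first 2 and the 3 of smallest p, with all markers; fewer are named. Trib3, Chac1, Ppp1r15a, Nupr1, Gdf15, Atf4, Asns, Id3, Slc4a7, Hand1, Dusp8, Slc23a3, Kdm5b, Nrp2, Sema3e, Trp53inp1 and the 12 brighter genes were added after their values were seen. The members, lists and tests were chosen with earlier results of these data known. Alternatives covered background, scaling, filters, probes, a trend on G and C and left-out arrays. Figures were drawn with matplotlib 3.10.9.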

Additional observations from a re-analysis of the deposited data

How the results depend on the processing

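The number of genes called at 8 h of SEMA3E against control was 1 as reported. It was 0 with normexp, quantile normalization, the median of all probes, the 4 arrays alone, no filter, only probes above background on the 4 arrays and an intensity trend in limma, where 645, 816, 2279, 1131, 2724, 772 and 933 genes had an unadjusted p under 0.05 against 1109 as reported. It was 2 with the mean of probes and 13 with the deposited table. With the replicate number as a block it was 7, and since only 2 pairs share a number this is no evidence of pairing. Leaving out 1 array at a time gave 0 to 2 calls and 539 to 2022 genes at an unadjusted p under 0.05. The low end was without SEMA3E 8 h replicate 2 and the high end without control replicate 2. Against cytochalasin D, 1 gene was called as reported, 0 with quantile normalization, the 75th percentile of all probes, no filter, only probes above background on the 4 arrays, outlier spots kept, the replicate block or any 1 array left out, 7 with the median of all probes and 15 with the deposited table. Against SEMA3E at 2 h, 0 were called as reported, 36 with the median of all probes, 32 with the deposited table, and 0 to 461 with 1 array left out, the high end being without SEMA3E 2 h replicate 1. The causes were not tested. Apobr passed with the replicate block (limma adjusted p = 0.0419), and Gbx1 without either SEMA3E 2 h array (limma adjusted p = 0.0283); both entered only through the SEMA3E 8 h arrays.

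Of 92 genes named, differences changed sign as follows. With the median of all probes, which moved all genes down by over 1, the values were Kyat1 -0.45, S100a11 -0.33, Gabarap -0.45, Dhcr7 -0.30, Poldip2 -0.41, Mvd -0.22, Mx2 -0.070, H2-D1 -0.22, Kdr -0.53, Rras -0.35, Mras -0.46, Gadd45b -0.30, Trp53inp1 -0.30, Ilk -0.24, Itga5 -0.061, Cd3e -0.35, Itgam -0.40, Asns -0.90, Kdm5b -0.20, Gipc1 -0.58, Hspa5 -1.13, Itgb1 -1.05 and Atf4 -0.98. With the 75th percentile of all probes they were Hspa5 -0.19, Itgb1 -0.10 and Atf4 -0.038. With the deposited table they were Foxl2 -2.86, Cdkn1a -0.72, Trp53inp1 -0.82, Spred1 1.11, Hspa5 -0.14 and Itgb1 -0.23. With the mean of probes they were Pfkfb3 0.039, Plxnd1 0.14 and Itgb1 -0.063, with normexp Plxnd1 0.028 and Sema3e 0.062, and with the trend on G and C removed Nrp2 0.17. With 1 array left out, the range crossed 0 for Ppp1r15a (-0.0021 to 2.93), Asns (-0.19 to 0.71), Hand1 (-0.27 to 2.62), Dusp8 (-0.075 to 2.51), Kdm5b (-0.20 to 2.12), Hspa5 (-0.049 to 0.10), Plxnd1 (-0.19 to 0.10), Itgb1 (-0.48 to 0.71), Nrp2 (-0.38 to 0.29), Slc4a7 (-2.65 to 0.24), Id3 (-2.22 to 0.021) and Atf4 (-0.0038 to 0.37). The lower genes Dars, Rap1a, Myc and Ccn2 kept their sign under all 22 alternatives, but several of these could not reverse it. Leaving out an array of another group or fitting the compared arrays alone cannot change a difference of group means. Nor can the intensity trend or the balanced replicate block, and the median difference stayed at 0.1226 in all of these. The median of all probes moved all genes down, so a lower gene stayed lower there. Depth of signal limits the genes under a level of -6, which lie close to the background of each array.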
